A study of Mus musculus with 6 samples.

Results

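The acyl-CoA thioesterase (Acot) family was examined in RNA of mice 48 h after partial hepatectomy (PHx), an operation that takes out a portion of the liver and sets off regrowth. Members were the 10 genes of the deposited table named Acot1, Acot2, Acot3, Acot4, Acot6, Acot7, Acot8, Acot9, Acot12 and Acot13, out of 34745 genes in the table. All 10 passed the filter on low counts, as did 12556 genes in all. The samples were 3 libraries labelled HKO and 3 labelled WT, which the series design text gives as Sox9HKO and Sox9f/f mice without the word WT. They came from 12-week-old C57BL/6 mice that had all undergone PHx, so that no library without surgery enters any comparison. Sox9f/f denotes a floxed Sox9 allele, which WT mice then carry too, and HKO mice are those in which Sox9 was targeted. The promoter that drives the recombinase, and whether the libraries are of separate mice, are not given in the sources used here, and p-values therefore measure the spread between these libraries only, which may be technical. The series title speaks of primary hepatocytes, and the sample labels name liver as tissue and hepatocyte as cell type.

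Fatty acids are handled inside the cell as thioesters of coenzyme A (CoA), and acyl-CoA thioesterases split these thioesters into a free fatty acid and CoA. The members work in different compartments: Acot1, Acot7 and Acot12 in the cytosol, Acot2, Acot9 and Acot13 at or in mitochondria, and Acot3, Acot4, Acot6 and Acot8 in peroxisomes, the organelles that shorten very long and branched fatty acids. In liver, several of them are known targets of the nuclear receptor PPAR-alpha, which responds to fatty acids in fasting. Acot1 to Acot6 form the type I branch, close copies of each other that lie side by side in the genome, and the other members belong to the unrelated type II branch.

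The type I genes lie on mouse chromosome 12 (GRCm38, plus strand, positions as in the deposited table, counted from 1) in the order Acot2 (83987861 to 83993873), Acot1 (84009502 to 84017670), Acot4 (84038379 to 84044723), Acot3 (84052144 to 84059565), Acot5 and Acot6 (84100654 to 84111349), over 123 kb. The type II members are scattered: Acot7 on chromosome 4 (152178134 to 152271855, plus), Acot8 on chromosome 2 (164792768 to 164804882, minus), Acot9 on chromosome X (155262443 to 155297654, plus), Acot12 on chromosome 13 (91741512 to 91786148, plus) and Acot13 on chromosome 13 (24817948 to 24831517, minus). The copies of the cluster differ at the ends of their coding sequences, which is where a peroxisomal protein usually carries its targeting signal. The last 30 coding bases before the stop codon, from the GENCODE M21 transcripts of GRCm38, are shown for the type I members and for the type II peroxisomal member Acot8, with the last 3 codons in capitals.
Acot1: agtgagtgtttgcatgtgtctCCTAAAATA
Acot2: ttcttccacaaacagttgggtAGCAAGAGT
Acot3: ggcaaaaagaagacaatcccaGCAAAACTG
Acot4: agtacccacagcagagcctccTGTAGACTG
Acot6: ggtgaaaagcctgccaggcacAGCAAACTG
Acot8: ttgaagcctcaggtgtcagagAGTAAGCTA
The capitals differ between cytosolic Acot1, mitochondrial Acot2 and the peroxisomal members. Over the aligned bases of the coding sequences, with gaps left out, Acot1 and Acot2 were 95.5% identical and Acot1 and Acot3 were 84.0% identical. The alignment of Acot1 with Acot2 held 144 gap bases. Acot4 and Acot3, both peroxisomal, were 75.9% identical.

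This likeness bears on the counts. Of the windows of 100 bases along the principal transcript, 21.9% in Acot1, 17.1% in Acot2 and 14.3% in Acot3 also occurred in a transcript of another gene, against 0.360% in Acot4, 1.82% in Acot6, 0.968% in Acot9 and 0 in Acot7, Acot8, Acot12 and Acot13. All shared windows of Acot2 at this length were shared with Acot1. With windows of 50 bases the shares were 33.6% in Acot1, 27.7% in Acot2 and 19.5% in Acot3. They were 4.87% in Acot4, 6.71% in Acot6 and 20.2% in Acot9, and still 0 in Acot7, Acot8, Acot12 and Acot13. Acot2 then also shared windows with Acot3 to Acot6, and all those of Acot9 were shared with Acot10. Most of the shared windows of Acot3 were shared with Gm49366, whose exons overlap those of Acot3 on the same strand over 396 bases. Gm49366 is absent from the deposited table, so that no counts are given for it. At both lengths Acot3 also shared windows with Acot1, Acot4, Acot5 and Acot6. No source used here says how reads that match several genes were assigned. The split of reads between Acot1 and Acot2 is therefore uncertain, as are the values of Acot3 through the windows it shared with other Acot genes. For matches as short as 50 bases the values of Acot9 would be open to the same doubt.

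Levels are given below as CPM (counts scaled to a library total, with TMM factors) where 1 gene is compared between libraries, and as the deposited FPKM (per gene length and library total) where genes are compared with each other. Differences are log2 fold changes, HKO minus WT, from edgeR's quasi-likelihood test over all 12556 genes, called at a Benjamini-Hochberg adjusted p below 0.05. By this rule 8 of the 10 members were higher in HKO and none was lower. Of all genes tested, 12.1% were higher and 11.2% were lower, or 23.2% in either direction. No member was lower at an unadjusted p below 0.05 either, and DESeq2 and limma-voom each also gave 8 higher and 0 lower. The median log2 fold change was 1.07 over the members and 0.02 over all genes tested. In all 8 called members every HKO library lay above every WT library, an arrangement found in 22.6% of all genes tested. In Acot6 every HKO library lay below every WT library, as in 21.6% of all genes tested, and groups without overlap in either direction made up 44.2% of all genes. The smallest two-sided exact permutation p that 3 against 3 libraries allow is 0.1. Any gene whose groups do not overlap has it, the 8 called members and Acot6 alike, so that it adds nothing to the arrangement.

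**Figure D1:**
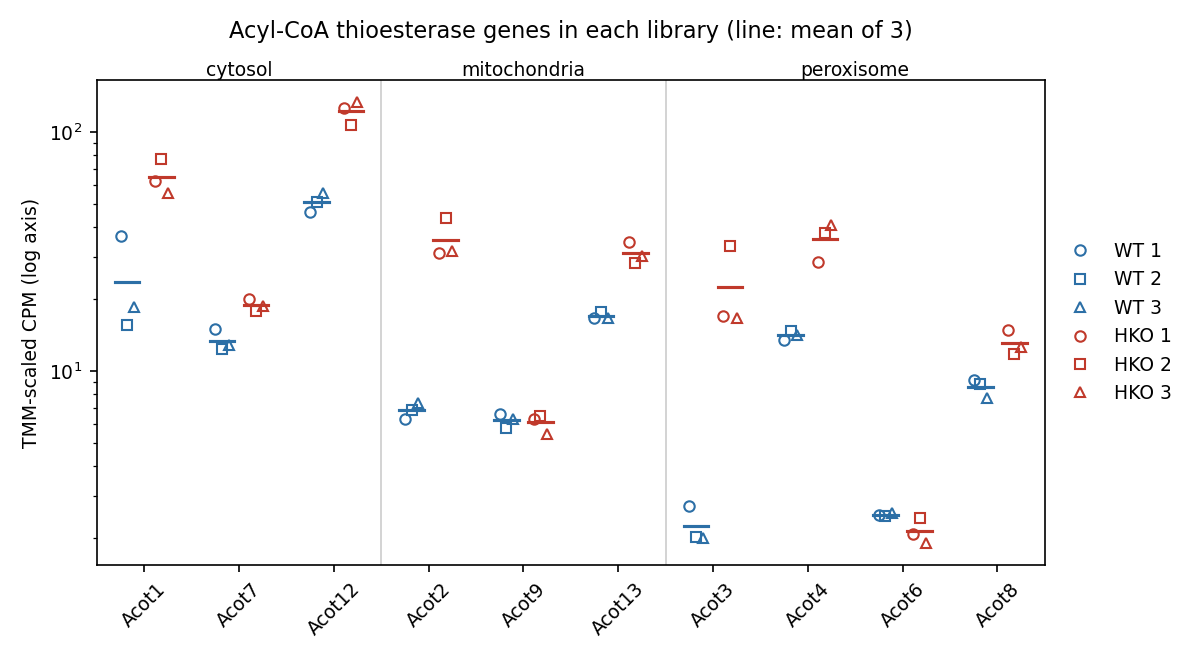
TMM-scaled CPM (log axis) of the 10 members in each library, grouped by compartment, with WT in blue, HKO in red, 1 symbol per replicate number and a line at the mean of 3. The HKO symbols stand above the WT symbols in 8 members, overlap them in Acot9 and stand just below them in Acot6.

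The depth of the libraries was 16659778 to 21168233 counts. Sox9 itself was at 6.34, 4.30 and 4.78 CPM in HKO 1, 2 and 3 and at 6.94, 13.7 and 11.4 CPM in WT 1, 2 and 3, with a log2 fold change of -1.05 ± 0.27 (SE) at an adjusted p of 0.0284. The groups did not overlap, and WT 1 lay close to HKO 1. The call of Sox9 was lost without HKO 2, HKO 3, WT 2 or WT 3, with adjusted p up to 0.0975 over the fits with a library left out. HKO 2 stood apart on the second principal component, and the 13 mitochondrially encoded genes took 25.9% of its counts, against 12.1% to 16.3% in the other libraries. Of 10 hepatocyte markers 2 were higher and 1 lower (0 to 3 and 0 to 1 with a library left out). Over all genes tested the shares were 12.1% higher and 11.2% lower. The summed level of the hepatocyte markers was 89984 to 95008 CPM in HKO and 95046 to 116272 CPM in WT. Alb made up most of this sum in every library, with a mean of 51431 CPM in HKO against 69461 CPM in WT. It did not pass the test (log2 fold change -0.43, adjusted p = 0.219). The median log2 fold change of the 10 markers was 0.14.

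The cytosolic members were all higher in HKO. Acot12, which hydrolyses acetyl-CoA to acetate in the cytosol of hepatocytes, was at 126, 107 and 134 CPM in HKO 1, 2 and 3 and at 46.2, 50.9 and 55.3 CPM in WT 1, 2 and 3. The lowest HKO value was thus well above the highest WT value. It rose 2.40-fold between the means of 122 ± 13.8 and 50.8 ± 4.56 CPM (SD, n = 3), with a log2 fold change of 1.26 ± 0.12 (SE) at an adjusted p of 0.000567. Without any 1 library its log2 fold change stayed between 1.19 and 1.35 and the call held in 6 of 6 such fits. Exons of Acot12 overlap an unnamed antisense gene, 4833422C13Rik, over 149 bases, and that gene held 126 counts over all 6 libraries.

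Acot1, which hydrolyses long-chain acyl-CoA and is known to respond to fasting, was at 62.1, 76.8 and 55.5 CPM in HKO 1, 2 and 3 and at 36.9, 15.6 and 18.6 CPM in WT 1, 2 and 3. The HKO values lay together, and WT 1 lay between them and the other WT libraries. Acot1 rose with a log2 fold change of 1.45 ± 0.31 (SE) at an adjusted p of 0.0140. Leaving out WT 1 gave 1.91 (adjusted p = 0.00141), and leaving out WT 3 ended the call (adjusted p = 0.0638). With its SD of 11.5 CPM around a mean of 23.7 CPM in WT, Acot1 was the most variable member in that group on this scale.

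Acot7, a cytosolic thioesterase known best from brain, was at 20.1, 17.8 and 18.6 CPM in HKO 1, 2 and 3 and at 15.1, 12.4 and 12.9 CPM in WT 1, 2 and 3. The groups did not overlap, and the gap between HKO 2 and WT 1 was small. Its rise was the smallest of the called members, with a log2 fold change of 0.49 ± 0.12 (SE) at an adjusted p of 0.0252. Leaving out HKO 1, HKO 3, WT 2 or WT 3 ended the call (adjusted p = 0.0733, 0.0653, 0.0898 and 0.0985), as did a fit with no scaling factor (adjusted p = 0.0621).

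Among the mitochondrial members, Acot2 and Acot13 rose and Acot9 did not pass the test. Acot2, the matrix enzyme for long-chain acyl-CoA, was at 31.2, 43.6 and 31.8 CPM in HKO 1, 2 and 3 and at 6.33, 6.91 and 7.38 CPM in WT 1, 2 and 3. The WT values lay close together, and HKO 2 was the highest of all libraries. Acot2 rose 5.16-fold between the means of 35.5 ± 6.99 and 6.88 ± 0.526 CPM (SD, n = 3), with a log2 fold change of 2.37 ± 0.16 (SE) at an adjusted p of 0.000241. It had the smallest adjusted p in the family, and its log2 fold change was 2.20 without HKO 2.

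Acot13, also called Them2, a small thioesterase for long-chain acyl-CoA that associates with mitochondria, was at 34.7, 28.3 and 30.2 CPM in HKO 1, 2 and 3 and at 16.7, 17.6 and 16.7 CPM in WT 1, 2 and 3. The WT libraries were nearly equal and every HKO library was higher. It rose with a log2 fold change of 0.87 ± 0.11 (SE) at an adjusted p of 0.00201, and the call held in 6 of 6 fits with a library left out.

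Acot9, a mitochondrial thioesterase with a broad substrate range, was at 6.34, 6.51 and 5.47 CPM in HKO 1, 2 and 3 and at 6.61, 5.79 and 6.29 CPM in WT 1, 2 and 3. The groups overlapped throughout. The log2 fold change was -0.03 with a 95% interval of -0.40 to 0.34 (adjusted p = 0.909), from 103 to 120 counts per library.

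The peroxisomal members held both the largest rise of the family and a member with no call. Acot3, a peroxisomal enzyme for medium- and long-chain acyl-CoA, was at 17.1, 33.4 and 16.7 CPM in HKO 1, 2 and 3 and at 2.72, 2.02 and 2.01 CPM in WT 1, 2 and 3. HKO 1 and HKO 3 were nearly equal, HKO 2 was the highest, and all were far above WT. Between the means of 22.4 ± 9.56 and 2.25 ± 0.407 CPM (SD, n = 3) the rise was 9.94-fold, with a log2 fold change of 3.31 ± 0.32 (SE) at an adjusted p of 0.000651, and with 2.90 (adjusted p = 7.18e-05) without HKO 2. The WT values rest on 33 to 49 counts per library. Exons of Acot3 overlap those of the antisense gene 4732463B04Rik, which held 5 counts over all libraries.

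Acot4, which acts on succinyl-CoA and other dicarboxylic acyl-CoAs, was at 28.5, 38.0 and 40.9 CPM in HKO 1, 2 and 3 and at 13.5, 14.7 and 14.2 CPM in WT 1, 2 and 3. The lowest HKO library, HKO 1, was still higher than every WT library. Acot4 rose with a log2 fold change of 1.34 ± 0.15 (SE) at an adjusted p of 0.00110, and the call held with each library left out.

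Acot8, a type II enzyme of broad range that also acts on the CoA esters of bile acid intermediates, was at 14.9, 11.8 and 12.7 CPM in HKO 1, 2 and 3 and at 9.17, 8.88 and 7.75 CPM in WT 1, 2 and 3. Every HKO library was higher, and the log2 fold change was 0.61 ± 0.14 (SE) at an adjusted p of 0.0204. The call was lost without HKO 1, HKO 3, WT 2 or WT 3 (adjusted p = 0.0614, 0.0507, 0.0563 and 0.0851). Exons of Acot8 overlap Snx21 on the opposite strand over 246 bases, and no strand-marking step is described for these libraries. Snx21 held 380 counts in all and had a log2 fold change of 0.20 (adjusted p = 0.580).

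Acot6, whose known substrates are CoA esters of branched fatty acids, was at 2.10, 2.44 and 1.91 CPM in HKO 1, 2 and 3 and at 2.50, 2.47 and 2.56 CPM in WT 1, 2 and 3. Every HKO value was below every WT value by a narrow margin, and the difference did not pass the test. The log2 fold change was -0.23 with a 95% interval of -0.77 to 0.32 (adjusted p = 0.518), from 39 to 45 counts per library.

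**Figure D2:**
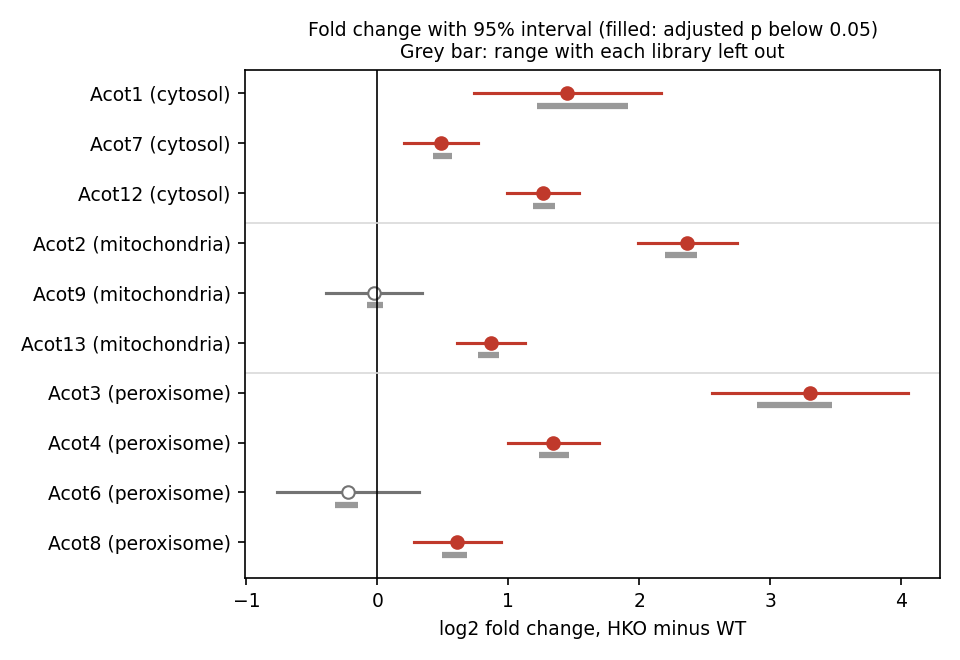
Log2 fold change (HKO minus WT) of each member with its 95% interval, filled red where the adjusted p was below 0.05, and a grey bar for the range with each library left out. Acot3 (3.31) and Acot2 (2.37) stand farthest from 0, and the intervals of Acot6 and Acot9 span 0.

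Fold changes varied within each compartment. In each of the 3 compartments the called members spanned a wide range, from 0.49 to 1.45 in the cytosol, from 0.87 to 2.37 in mitochondria and from 0.61 to 3.31 in peroxisomes. The members without a call were mitochondrial Acot9 and peroxisomal Acot6. By branch, 4 of 5 type I and 4 of 5 type II members rose, and the branch medians of the log2 fold change were 1.45 and 0.61. Between the compartments no test was made, since members are not replicates.

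Acot2, Acot1, Acot4 and Acot3, which stand next to each other, all rose. Acot5, the next gene, held 6, 3 and 3 counts in HKO 1, 2 and 3 and 0 in each WT library, too few to be tested. Acot6, at the end, was the member with no rise. The only other gene of the table inside the span was the antisense gene 4732463B04Rik.

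**Figure D3:**
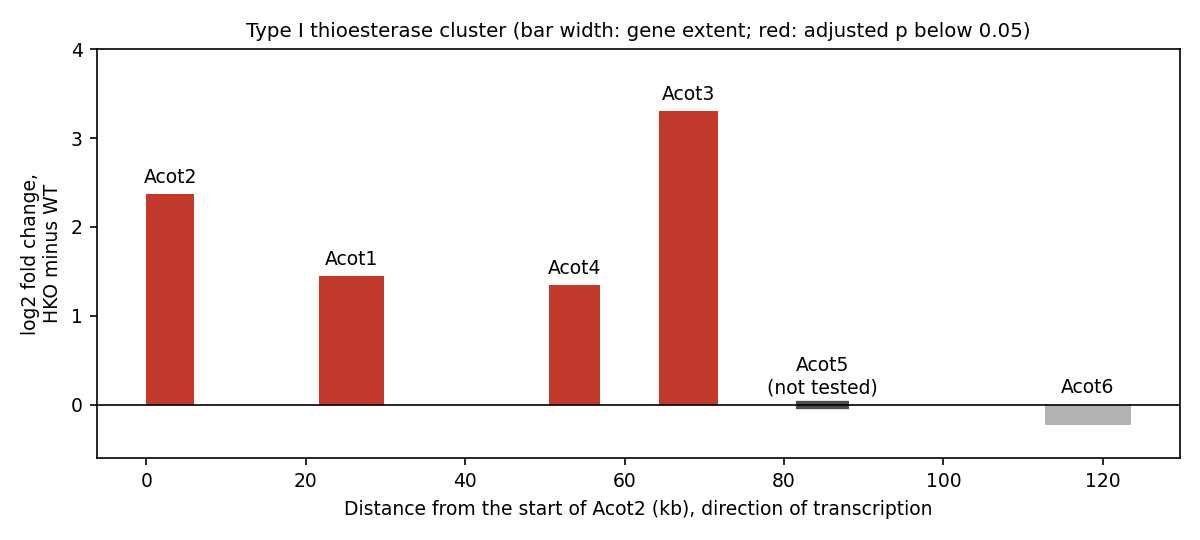
Log2 fold change (HKO minus WT, bar height) of the type I genes against their distance in kb from the start of Acot2, with bar width showing the extent of each gene and red marking an adjusted p below 0.05. The 4 red bars, 1.34 to 3.31 high, are neighbours, and Acot6 at the far end stands at -0.23.

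By the deposited values, neighbouring copies rose unequally. The ratio of Acot1 to Acot2 FPKM was 2.81, 2.48 and 2.46 in HKO 1, 2 and 3 and 8.20, 3.17 and 3.54 in WT 1, 2 and 3. Every HKO ratio was below every WT ratio, so that by these values the mitochondrial copy gained on the cytosolic one. This ratio rests on the split of reads between Acot1 and Acot2, which is uncertain. The mean difference was -0.81 on the log2 scale (exact two-sided permutation p = 0.1, the smallest 3 against 3 libraries allow) and -0.38 without WT 1, the library with the high Acot1. The ratio of Acot4 to Acot3 FPKM was 1.74, 1.18 and 2.56 in HKO 1, 2 and 3 and 5.17, 7.56 and 7.36 in WT 1, 2 and 3, also without overlap, with a mean difference of -1.92 (exact two-sided permutation p = 0.1). If each read was counted once, the summed level of Acot1 and Acot2 does not depend on how reads shared by this pair were split. It can still change with reads that Acot1 or Acot2 shares with other genes, among them Acot3, Acot4, Acot5 and Acot6, or if shared reads were dropped. It was 93.3, 120 and 87.2 CPM in HKO 1, 2 and 3 and only 43.2, 22.5 and 25.9 CPM in WT 1, 2 and 3, or 3.28-fold higher in HKO between the means.

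**Figure D4:**
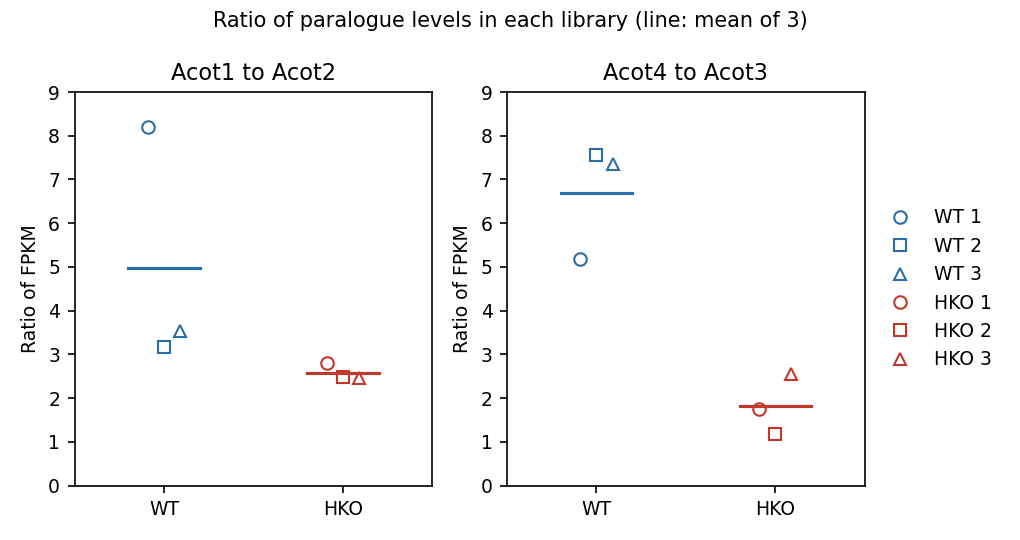
Ratio of FPKM in each library for Acot1 to Acot2 (left) and Acot4 to Acot3 (right), with a line at the mean of 3. Both ratios are lower in every HKO library, and the Acot1 to Acot2 ratio of WT 1 (8.20) stands far above those of WT 2 and WT 3.

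Per gene length, the order of the members changed with genotype below the first 3. In WT the most abundant transcript was Acot13 (23.6 ± 0.811 FPKM), then Acot1 (15.4 ± 8.36), Acot12 (13.2 ± 0.837), Acot4 (4.75 ± 0.0477), Acot7 (4.03 ± 0.638), Acot2 (3.13 ± 0.157), Acot8 (3.07 ± 0.369), Acot9 (2.11 ± 0.241), Acot6 (0.742 ± 0.0392) and Acot3 (0.731 ± 0.170), all as mean ± SD over 3 libraries. The values of Acot1 overlapped those of Acot13 and Acot12, and overlaps also joined Acot4 with Acot7, Acot2 with Acot8 and Acot6 with Acot3. In HKO Acot13 (43.2 ± 6.30 FPKM) and Acot1 (41.3 ± 4.59) overlapped at the top, followed by Acot12 (32.0 ± 5.25), Acot2 (16.0 ± 2.19) and Acot4 (12.0 ± 2.21). Acot3 moved from the last place in WT to the sixth in HKO (7.11 ± 2.58 FPKM), with a range that overlapped those of Acot4 before it and Acot7 (5.63 ± 0.606) after it. The next was Acot8 (4.70 ± 0.765), which overlapped Acot7. Acot9 (2.05 ± 0.141 FPKM) and Acot6 (0.631 ± 0.0443) came last.

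Summed over all 10 members, the level was 168, 161 and 164 FPKM in HKO 1, 2 and 3 and 82.3, 63.5 and 66.7 FPKM in WT 1, 2 and 3. The HKO sums were nearly equal, and WT 1 was the highest of WT. The cytosolic members together held 78.9 ± 1.85 FPKM in HKO and 32.7 ± 8.70 FPKM in WT, the mitochondrial members 61.3 ± 4.45 and 28.8 ± 0.885 FPKM, and the peroxisomal members 24.5 ± 2.58 and 9.30 ± 0.599 FPKM (SD, n = 3). The ratios of these means were 2.41, 2.13 and 2.63. The division between cytosol and mitochondria rests in part on the uncertain split of reads between Acot1 and Acot2. The peroxisomal sum includes Acot3, whose values are also uncertain. As shares of the family's summed FPKM the compartments overlapped between genotypes: the peroxisomal share was 12.8% to 16.5% in HKO and 12.1% to 14.4% in WT. The cytosolic share, 47.9% ± 0.0553 in HKO (SD, n = 3), lay inside the WT range of 40.8% to 51.6%. The share of the type I members was 42.5%, 54.2% and 44.0% in HKO 1, 2 and 3 and 42.0%, 29.5% and 31.6% in WT 1, 2 and 3, with WT 1 close to HKO 1. No test was made of these sums.

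**Figure D5:**
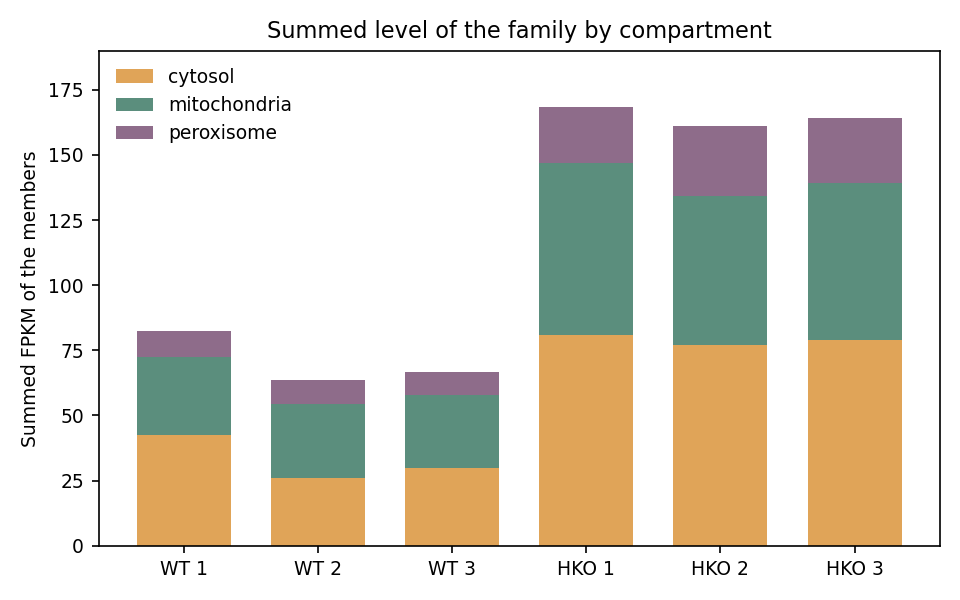
Summed FPKM of the cytosolic, mitochondrial and peroxisomal members in each library, stacked. The HKO bars reach 161 to 168 FPKM and the WT bars 63.5 to 82.3 FPKM, and all 3 compartments are taller in HKO.

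Promoter sequence is shown for the 4 neighbours of the cluster that rose and for Acot12, the most abundant member by CPM, as examples of members that rose. RefSeq windows (GRCm38.p6) were found for 8 of the 10 members, and for Acot6 and Acot13 none was found. The 250 bases before the annotated start are printed 5′ to 3′ in the direction of transcription, from chr12:84009252-84009501 for Acot1, chr12:83987611-83987860 for Acot2, chr12:84051894-84052143 for Acot3, chr12:84038129-84038378 for Acot4 and chr13:91741271-91741520 for Acot12, all on the plus strand. Capitals mark AGGTCA, the hexamer repeated in elements bound by PPAR-alpha with its partner RXR, and ACAATG or ACAAAG, core motifs of SOX proteins, on either strand.
Acot1: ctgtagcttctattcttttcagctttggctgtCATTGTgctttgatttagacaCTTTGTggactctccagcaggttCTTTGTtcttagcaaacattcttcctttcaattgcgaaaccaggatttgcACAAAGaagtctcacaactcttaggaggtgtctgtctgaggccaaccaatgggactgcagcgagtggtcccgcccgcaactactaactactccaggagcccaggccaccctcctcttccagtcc
Acot2: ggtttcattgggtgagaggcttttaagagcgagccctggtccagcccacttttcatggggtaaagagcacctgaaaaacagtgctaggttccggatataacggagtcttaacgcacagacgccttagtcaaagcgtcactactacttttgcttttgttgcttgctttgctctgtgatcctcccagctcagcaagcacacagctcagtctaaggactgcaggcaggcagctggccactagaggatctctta
Acot3: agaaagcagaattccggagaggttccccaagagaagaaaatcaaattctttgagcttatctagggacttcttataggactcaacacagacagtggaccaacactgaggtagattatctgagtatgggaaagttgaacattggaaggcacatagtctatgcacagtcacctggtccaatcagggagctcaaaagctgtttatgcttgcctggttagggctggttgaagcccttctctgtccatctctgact
Acot4: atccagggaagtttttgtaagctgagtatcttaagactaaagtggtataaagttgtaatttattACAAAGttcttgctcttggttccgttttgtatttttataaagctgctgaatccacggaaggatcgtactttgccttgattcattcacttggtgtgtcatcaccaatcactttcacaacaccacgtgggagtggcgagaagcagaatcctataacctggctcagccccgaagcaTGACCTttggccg
Acot12: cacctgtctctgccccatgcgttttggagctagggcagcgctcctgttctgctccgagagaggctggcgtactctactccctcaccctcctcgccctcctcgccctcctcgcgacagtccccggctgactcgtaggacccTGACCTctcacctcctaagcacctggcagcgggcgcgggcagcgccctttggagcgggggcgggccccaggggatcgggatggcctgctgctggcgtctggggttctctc
In the window of Acot1, ACAATG begins 218 bases before the start and ACAAAG 197, 174 and 124 bases before it. Acot4 holds ACAAAG 186 bases and AGGTCA 13 bases before the start, and Acot12 holds AGGTCA 110 bases before it. Acot3 holds AGGTCA from base 19 after the start, beyond the printed stretch, and in Acot2 none of these letters occurred. Among the members whose windows are not printed, Acot9, which was not called, holds ACAATG 164 and 95 bases before the start, and Acot7 and Acot8, which rose, hold none of the motifs. Over all 32851 RefSeq promoter windows of 300 bases, 16.3% hold AGGTCA, 12.6% hold ACAATG and 18.7% hold ACAAAG. The full repeat AGGTCANAGGTCA, on either strand, was in 0.0396% of the windows and in none of the members. Such matches describe the letters in these windows only.

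Genes that share substrates with the family were counted from 8 lists, with the shares of all genes (12.1% higher, 11.2% lower) as the background. Of 9 tested genes in the list of other thioesterases, among them Acot10, Acot11, Baat, Them4 and Them6, 1 rose and 8 did not pass. These 8 include Mcat, which does not encode a thioesterase. The median log2 fold change was 0.05. By edgeR none was lower at an unadjusted p below 0.05, and none by DESeq2 or limma-voom. Without WT 2, 1 was called lower, Them5, which did not pass the filter on low counts with all 6 libraries (0, 0 and 2 counts in HKO 1, 2 and 3 and 19, 1 and 14 counts in WT 1, 2 and 3). The gene that rose was Them7, of the thioesterase superfamily (log2 fold change 0.92, adjusted p = 0.0341), and its call was lost without HKO 1, HKO 3 or WT 3. Acot11 (log2 fold change -0.23, adjusted p = 0.287) and Acot10 (0.31, adjusted p = 0.649) did not pass.

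Acyl-CoA synthetases, which run the opposite reaction and make acyl-CoA from free fatty acids, moved in both directions. Of 16 tested, 5 rose, 2 fell and 9 did not pass, around a median of 0.27. Without HKO 1, HKO 3, WT 1 or WT 3, 1 was lower. Acsl1, the main long-chain synthetase of liver, rose from 203 ± 71.3 to 451 ± 47.6 CPM (SD, n = 3; log2 fold change 1.16, adjusted p = 0.0108), and the very long chain synthetase gene Slc27a2 rose from 574 ± 51.6 to 1191 ± 194 CPM (log2 fold change 1.05). Slc27a1 rose with 1.57. Acsl3, a synthetase of the endoplasmic reticulum and lipid droplets, fell from 42.4 ± 7.13 to 14.5 ± 1.61 CPM (log2 fold change -1.55, adjusted p = 0.000678).

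Genes of CoA supply and breakdown are linked to the family through the CoA that thioesterases release. In CoA synthesis 4 of 9 rose and none fell (by edgeR none at an unadjusted p below 0.05, and none by DESeq2 or limma-voom). Pank1, which encodes the kinase that starts CoA synthesis, rose with a log2 fold change of 0.72 (adjusted p = 0.00718), and its call held with each library left out. The calls of Slc5a6, Coasy and Slc25a42 (log2 fold changes 0.87, 0.50 and 0.41) held in only 2, 1 and 1 of 6 such fits. In these fits 1 gene of the list was called without HKO 1, HKO 3 or WT 3, and 2 were without WT 1 or WT 2. In CoA breakdown 1 of 7 rose and 2 fell. Vnn1, a pantetheinase, rose from 25.7 ± 1.55 to 55.9 ± 6.37 CPM (log2 fold change 1.12, adjusted p = 0.000788). Nudt7, which encodes the diphosphatase that degrades CoA and its esters inside peroxisomes, fell from 236 ± 12.4 to 118 ± 23.3 CPM (log2 fold change -0.998, adjusted p = 0.00355), with 139, 93.2 and 123 CPM in HKO 1, 2 and 3 against 222, 243 and 244 CPM in WT 1, 2 and 3. Enpp3, which encodes a cell-surface nucleotide pyrophosphatase, fell with a log2 fold change of -0.85 (adjusted p = 0.00107). Nudt19, which encodes another peroxisomal CoA diphosphatase, did not pass the test (log2 fold change 0.35, adjusted p = 0.0651), with every HKO library above every WT library.

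The oxidation genes of both organelles were higher or without a call. Of 21 tested genes of peroxisomal acyl-CoA oxidation and export 11 rose, none was lower by edgeR (2 at an unadjusted p below 0.05, 1 by DESeq2 and 0 by limma-voom) and 10 did not pass. The median log2 fold change was 0.51. With a library left out 8 to 11 were higher, and 1 was lower without WT 1. Ehhadh, the bifunctional enzyme of the peroxisomal pathway, rose from 118 ± 27.3 to 546 ± 28.9 CPM (log2 fold change 2.21, adjusted p = 0.000298), and the thiolase gene Acaa1b with 2.17. Eci2 and Decr2, auxiliary enzymes for unsaturated chains, rose with 1.45 and 1.36. Of 18 tested genes of mitochondrial import and oxidation 12 rose and 6 did not pass, with 9 to 13 higher with a library left out. None was lower by edgeR at an unadjusted p below 0.05 or by the other tools, and the median was 0.64. Cpt1a, the gate of fatty acid entry into mitochondria, rose from 299 ± 57.0 to 727 ± 58.9 CPM (log2 fold change 1.28), Slc25a20 and Eci1 rose with 1.09 and 0.999, and the muscle isoform gene Cpt1b rose from 0.897 ± 0.812 to 8.40 ± 0.691 CPM (log2 fold change 3.22, and 2.74 to 4.23 with a library left out). Acadm (log2 fold change 0.22, adjusted p = 0.124) and Ucp2 (0.01, adjusted p = 0.977) were among those that did not pass. Many genes of these lists, like most of the type I members, are known PPAR-alpha targets. Whether this receptor had a part in the differences was not tested.

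Among proteins that bind fatty acids or acyl-CoA 2 of 11 rose and 2 fell. The median was 0.30. Dbi, which encodes the cytosolic acyl-CoA binding protein, fell from 332 ± 19.0 to 198 ± 20.5 CPM (log2 fold change -0.75, adjusted p = 0.00338), and Fabp5 fell with -1.66. Fabp1 and Fabp2, fatty acid binding proteins of liver and intestine, rose with 0.61 and 0.74. Without WT 2 or WT 3, 1 gene of this list was higher, and the call of Fabp1 was lost.

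Of 14 tested nuclear receptors, coregulators and hormone genes tied to the family's regulation 3 rose and 11 did not pass. The median was 0.38, and none was lower by edgeR at an unadjusted p below 0.05 or by the other tools. Fgf21, a fasting hormone and PPAR-alpha target, rose from 0.591 ± 0.0946 to 4.76 ± 1.34 CPM (log2 fold change 2.99, adjusted p = 0.000967), Creb3l3 rose with 0.65 and Ppargc1a with 0.97, its call being lost without HKO 3 or WT 3. The gene of PPAR-alpha itself, Ppara, was at 44.0, 75.1 and 86.2 CPM in HKO 1, 2 and 3 and at 32.3, 51.3 and 44.9 CPM in WT 1, 2 and 3. Its groups overlapped and it did not pass the test (log2 fold change 0.68, adjusted p = 0.0976). Rxra (0.28, adjusted p = 0.108), Hnf4a (0.45, adjusted p = 0.0682) and Angptl4 (0.47, adjusted p = 0.204) did not pass either. Without HKO 3 or WT 3, 2 genes of this list were higher, and 4 were without HKO 1 or HKO 2. Ppara was called in the fit without HKO 1, and Hnf4a in that without HKO 2.

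The genes whose level ran closest to a member over the 6 libraries were taken by Pearson's r of log2 CPM among 12546 other tested genes, as a description, since all points share the difference between genotypes. Closest to Acot3, the member with the largest change, were Acd, Ttyh3, Dgka, Dusp1 and Inmt, with r from 0.995 to 0.998. Closest to Acot12 were Rhoq, Glrx, Atl2, Cyth1 and Slc20a1, with r from 0.998 to 0.999. Closest to Acot1, chosen after its high value in WT 1 was seen, were Nlgn2, Srsf4, Gm10639, Jund and Wee1 (r from 0.992 to 0.997). The level of Jund was 83.8, 86.0 and 76.0 CPM in HKO 1, 2 and 3 and at 67.9, 45.9 and 47.96 CPM in WT 1, 2 and 3, again with WT 1 nearest to HKO.

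Markers of several other liver cell types moved with genotype beside these values. Of all genes tested 12.1% were higher and 11.2% were lower, and the count of endothelial markers called was near these shares. In bulk RNA a change in the number of cells of a type and a change of RNA per cell cannot be told apart. All 10 Kupffer cell and macrophage markers rose, with a summed level of 248 to 384 CPM in HKO and 169 to 179 CPM in WT, with HKO 2 the lowest of HKO, and 7 were called in each fit with a library left out except that without HKO 2, which called 10. Endothelial markers (1 of 10 higher) summed to 210 to 611 CPM in HKO and 125 to 202 CPM in WT, and stellate cell markers (4 of 9 tested higher) to 175 to 591 CPM and 99.7 to 150 CPM, both with HKO 2 highest. The count of endothelial markers called higher was 4 without HKO 1 and 6 by DESeq2. That of stellate markers was 0 without WT 3 and 1 without WT 1, without WT 2 or by limma-voom. Bile duct markers (3 of 5 tested lower, Sox9 among them) summed to 40.8 to 69.3 CPM in HKO and 75.7 to 185 CPM in WT, and 1 was called lower without WT 2 or WT 3 and 2 without HKO 3. Of B and plasma cell markers 3 of 4 tested rose and 1 fell, and the sums were 221 to 243 CPM in HKO and 249 to 283 CPM in WT, mostly of Xbp1, which hepatocytes also express and which was the marker that fell. The call of Xbp1 was lost without HKO 2, HKO 3, WT 2 or WT 3. The antibody genes Ighm and Igkc and the joining chain gene Jchain rose 20.8-fold, 12.2-fold and 7.38-fold between the means, with HKO means of 13.02, 8.39 and 2.13 CPM, and their calls held with each library left out. Red blood cell markers (3 of 5 tested higher) summed to 70.0 to 76.8 and 53.7 to 61.7 CPM, and 1 was called higher without any 1 WT library or by limma-voom. Neutrophil markers (1 of 1 tested higher, with Camp, Ly6g and Ngp at 0), T and NK cell markers (0 of 1, with Cd3d and Cd8a at 0) and adipocyte markers (1 of 2, with Adipoq, Lep and Retn at 0) stayed at or below 22.0 CPM in sum in every library. The neutrophil call was kept in the fit without HKO 3 and in no other fit with a library left out, nor by DESeq2 or limma-voom, and the adipocyte call in no fit with a library left out and not by DESeq2. The part of these cells in the members' values was not tested.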

How the data were processed

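The deposited table holds, per the file headers, a raw read count and an FPKM for every Ensembl gene in each library. The authors' FPKM follows from the count, the library total and a fixed gene length: the implied length differed by less than 0.1% between libraries in all 9308 genes reaching 50 counts throughout. The submitters' processing notes name HISAT2 (2.0.4), StringTie (1.3.0), mm10 and GRCm38.p4, without roles or settings. Per the labels' protocols mRNA was separated and fragmented before library making, and no strand-marking step is described.

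The count test ran in edgeR 4.0.16 under R 4.3.3: filterByExpr, TMM, and the quasi-likelihood F-test on genotype, without a block, fitted on the whole table (no row without a gene name, 16194 genes at 0 throughout). Each p was adjusted over all 12556 genes tested. Standard errors were derived from F, and 95% intervals use the test's degrees of freedom. The script was tested on simulated data. Overlaps and transcripts came from GENCODE M21 (GRCm38), whose gene ends are the table's in Acot2, Acot6, Acot7, Acot9 and Acot12 and differ in the other 5. Alternatives were DESeq2 1.42.0, limma-voom (limma 3.58.1), other scalings and filters, a replicate block and each library left out. No columns were left unused.

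The members and the 18 lists (210 entries, all matched by symbol or RefSeq synonym) were chosen with earlier results of these data known. Named genes are the 10 members, up to 4 called genes with the largest absolute log2 fold change per pathway list, and the 5 genes closest to Acot3 and to Acot12 by Pearson's r of log2 CPM with a prior count of 2. Other genes were named after their values were seen. With the same replicate number, HKO and WT libraries deviated from their group means with correlations of -0.0019, 0.0025 and 0.072. These show no effect shared by number, but they cannot tell whether the libraries were made in pairs.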

Additional observations from a re-analysis of the deposited data

How the results depend on the processing

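The cause of the differences between settings was not tested. The count of 8 members higher in HKO was also given by DESeq2, limma-voom, RLE scaling, no filter on low counts and the fit without the mitochondrially encoded genes. It was 7 without a scaling factor, where Acot7 was lost, and 7 with at least 50 counts in every library, where Acot3 and Acot6 were not tested. With each library left out it ranged from 5 (without WT 3) to 8, and no member was called lower in any of these fits. The count of all genes called was 2917, and 1404 to 3135 with a library left out, the lowest without WT 3 and with 1876 without HKO 3 and 1846 without WT 2. With a replicate block, 8 members and 2360 genes in all were called. The direction of Acot9 turned without HKO 3 (log2 fold change 0.042) and without WT 1 (0.0036), while its values ranged from -0.083 to 0.042 with a library left out. The other 9 members kept theirs under every alternative that tested them. The difference of the Acot1 to Acot2 ratio ranged from -1.06 to -0.38 and that of Acot4 to Acot3 from -2.20 to -1.65 with a library left out, where an exact p cannot go below 0.2. Acot6, at 39 to 45 counts per library, and Acot3 in WT, at 33 to 49, are the members most limited by depth.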
